A study of Mus musculus with 48 samples.

Results

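The 10 genes described here belong to the core of the mammalian circadian clock and its first outputs: Per1, Per2, Per3, Dbp, Nr1d1, Nr1d2, Arntl, Clock, Ciart and Tef. They were taken by symbol from a count table of 54838 genes, in which each of the 10 matched a single Ensembl identifier. All 10 are protein-coding and passed the filter on low counts in both tissues, with between 45 (Ciart) and 6511 (Tef) reads per sample. The samples were hippocampus and prefrontal cortex of male mice, either wild type (WT) or carrying a knockout (KO) of Aag, the DNA repair glycosylase encoded by Mpg. Mice were 5 days old (P5), 6 weeks old (6W) or adult at 4 to 6 months (labelled 6M), with 4 animals in each of 12 groups of tissue, genotype and age and 48 samples in all. Strain, light cycle and hour of collection are not given in the sources used here. Hippocampus and prefrontal samples carry the same numbers 1 to 4 within a genotype and age, and whether a shared number is a shared animal is not stated.

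Clock and Arntl (also called Bmal1) pair to form an activator that binds E-box sequences. Its targets include the Per genes and Ciart (also called Chrono), which inhibit it, and Nr1d1 and Nr1d2 (Rev-erb alpha and beta), nuclear receptors that repress Arntl. Dbp and Tef are transcription factors of the PAR bZIP family that bind D-box sequences and carry the rhythm to other genes. In most tissues transcripts such as Dbp and Nr1d1 peak at an hour when Arntl is low.

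In GRCm38 the activators lie apart, Arntl (ENSMUSG00000055116) at chr7:113207465-113314126 on the plus strand and Clock (ENSMUSG00000029238) at chr5:76209868-76304792 on the minus strand. The inhibitors are Per1 (ENSMUSG00000020893) at chr11:69095217-69109960 on the plus strand, Per2 (ENSMUSG00000055866) at chr1:91415982-91459324 on the minus strand, Per3 (ENSMUSG00000028957) at chr4:151003652-151044665 on the minus strand and Ciart (ENSMUSG00000038550) at chr3:95878503-95882251 on the minus strand. The Rev-erb receptors are Nr1d1 (ENSMUSG00000020889) at chr11:98767932-98775333 on the minus strand and Nr1d2 (ENSMUSG00000021775) at chr14:18204054-18239127 on the minus strand, and the PAR bZIP factors Dbp (ENSMUSG00000059824) at chr7:45705088-45710203 on the plus strand and Tef (ENSMUSG00000022389) at chr15:81802421-81826863 on the plus strand.

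The loops run through short promoter elements, so the windows that hold one are shown. RefSeq windows (GRCm38.p6) of the 250 bases before each annotated start were searched on both strands. Windows matched 9 of the 10 genes, 14 in all, and that of Per2 was not searched. The E-box CACGTG lay in 4 of the 14 windows, belonging to Per1, Ciart and Tef, and in 6.021% of all 32851 windows of this length. The variant CACGTT lay in 1 window, that of Nr1d1, and in 3.848% of all. A D-box, TTATGTAA or TTACGTAA, lay in 1 window, that of Per3, and in 0.931% of all. The element of Rev-erb and ROR receptors, searched as TAGGTCA or TGGGTCA, was in 0 of the 14 windows (5.382% of all), and so was the cyclic AMP element TGACGTCA (1.546% of all). No motif found overlapped another. The sequences are written 5′ to 3′ on the gene's strand with the motif in capitals, leaving out a second Tef window.
Ciart: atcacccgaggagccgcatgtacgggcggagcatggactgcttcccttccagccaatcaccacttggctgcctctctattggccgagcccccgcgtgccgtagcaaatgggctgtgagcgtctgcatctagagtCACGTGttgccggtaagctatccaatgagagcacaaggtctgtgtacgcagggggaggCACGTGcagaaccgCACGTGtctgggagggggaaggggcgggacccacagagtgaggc
Per3: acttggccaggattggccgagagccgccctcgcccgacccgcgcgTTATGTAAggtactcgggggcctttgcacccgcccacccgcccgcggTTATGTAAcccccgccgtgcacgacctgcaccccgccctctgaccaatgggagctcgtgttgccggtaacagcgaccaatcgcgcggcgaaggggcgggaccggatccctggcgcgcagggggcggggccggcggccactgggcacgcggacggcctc
Per1: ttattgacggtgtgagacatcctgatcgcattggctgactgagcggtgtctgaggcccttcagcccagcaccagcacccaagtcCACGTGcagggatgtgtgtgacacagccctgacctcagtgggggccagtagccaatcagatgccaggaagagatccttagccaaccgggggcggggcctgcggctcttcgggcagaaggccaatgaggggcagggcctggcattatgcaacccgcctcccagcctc
Tef: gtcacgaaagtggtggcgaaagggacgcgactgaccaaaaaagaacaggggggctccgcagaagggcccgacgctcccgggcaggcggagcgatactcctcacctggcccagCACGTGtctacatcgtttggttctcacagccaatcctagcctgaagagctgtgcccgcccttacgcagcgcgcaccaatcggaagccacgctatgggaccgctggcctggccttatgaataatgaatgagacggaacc
Nr1d1: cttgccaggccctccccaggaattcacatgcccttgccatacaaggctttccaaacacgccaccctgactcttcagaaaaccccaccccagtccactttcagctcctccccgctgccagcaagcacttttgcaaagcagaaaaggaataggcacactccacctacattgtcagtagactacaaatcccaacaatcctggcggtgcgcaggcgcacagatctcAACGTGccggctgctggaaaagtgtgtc
The Ciart window (chr3:95882229-95882478, minus strand) holds 3 E-boxes, whose first bases lie 116, 58 and 44 bases before the start. The Per3 window (chr4:151044666-151044915, minus strand) holds the same D-box at 205 and at 158 bases before the start. The E-box lies 166 bases before the start in Per1 (chr11:69098699-69098948, plus strand) and 138 bases before it in Tef (chr15:81811164-81811413, plus strand). In Nr1d1 (chr11:98775378-98775627, minus strand) the variant E-box reads AACGTG on the gene's strand, 28 bases before the start. These are matches of letters, and binding was not measured.

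Total counts ran from 21615824 to 47343993 per sample (median 26136099). Mpg lay between 0.940 and 2.54 CPM (read counts scaled to library size) in the 24 KO samples and between 4.44 and 8.89 CPM in the 24 WT samples. Prox1, a granule cell marker, was at 111 CPM or more in every hippocampus sample and at 27.8 CPM or less in every prefrontal sample. Avp, a peptide of the hypothalamus, reached 15.8 CPM in prefrontal cortex at 6M and was at 0.649 CPM or less in all other groups. KO 6M replicate 3 had the lowest Dbp, Nr1d1, Nr1d2, Ciart and Tef and the highest Arntl of its group in both tissues. No gap to its nearest neighbour passed Dixon's test for 4 samples, the largest being 0.721 of the range (Dbp in hippocampus). It was singled out after these values were seen, so leaving it out shows what a result rests on and is no test of its own. CPM values below use library sizes scaled by edgeR's TMM factors, and comparisons between genes use RPKM, which also divides by gene length.

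**Figure D1:**
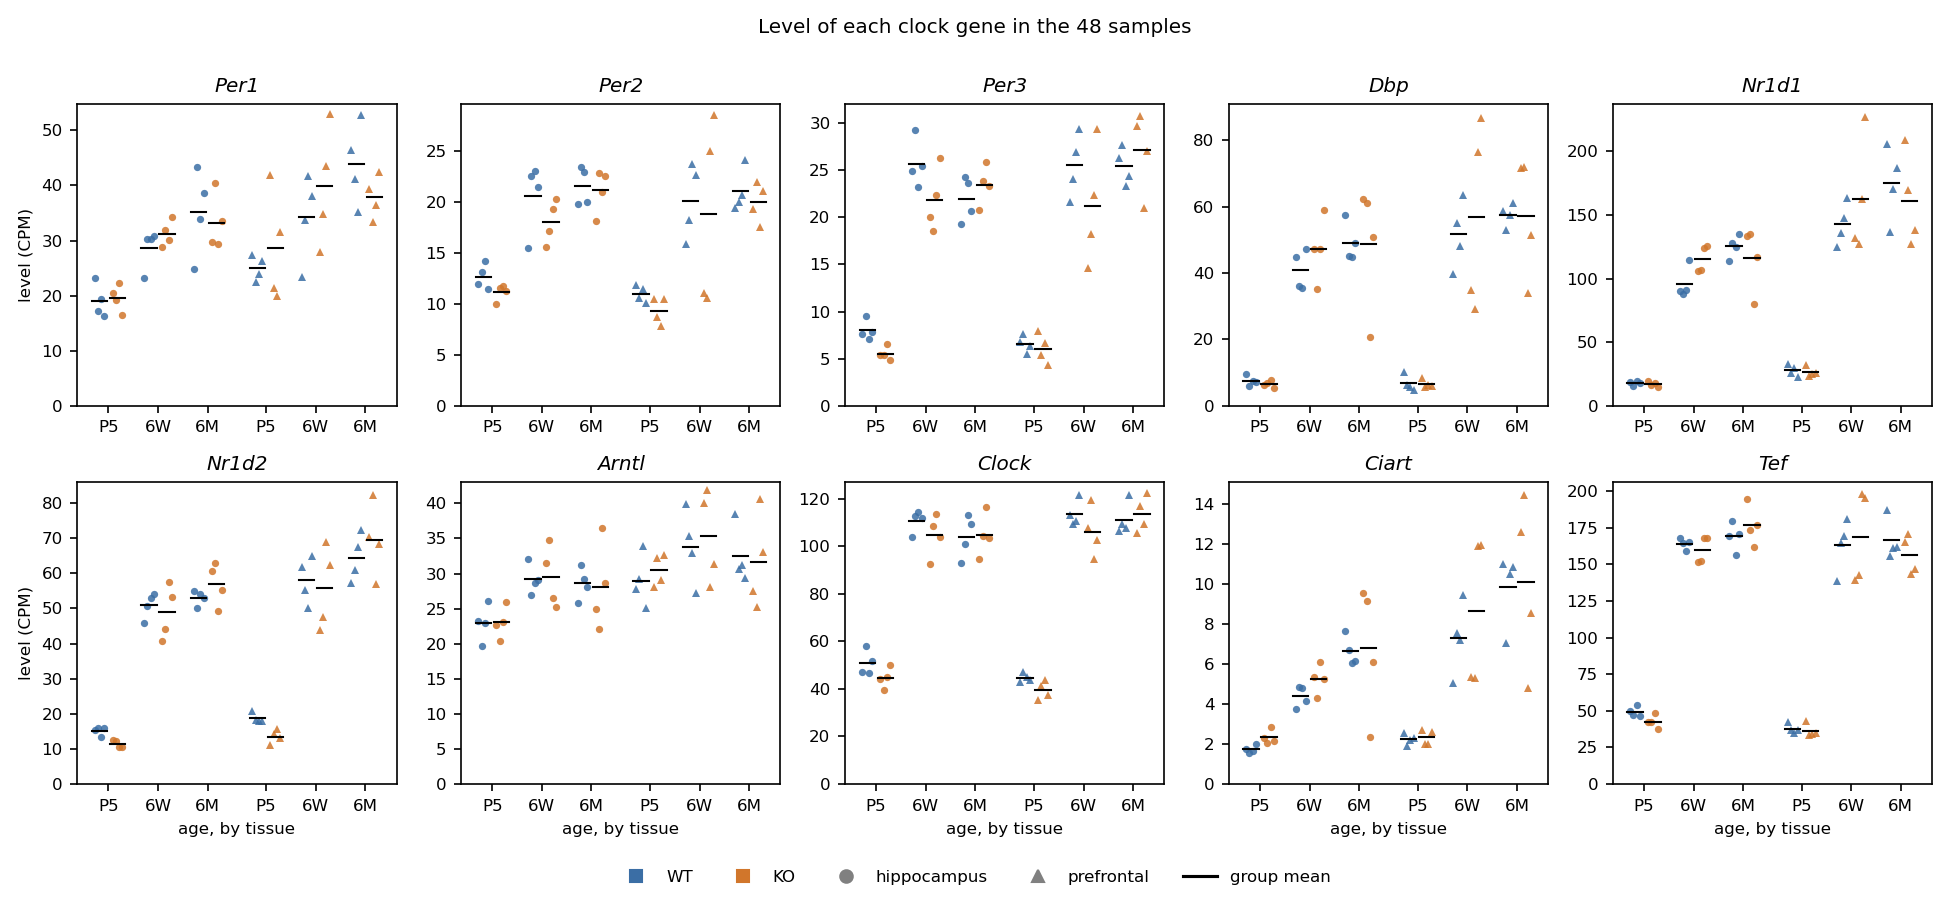
Level of each gene in CPM (y axis, from 0, with its own scale per gene) at 3 ages in hippocampus (circles, left) and prefrontal cortex (triangles, right), WT in blue and KO in orange; each point is 1 sample and each bar a group mean. Dbp, Nr1d1, Nr1d2, Per3, Clock and Tef at P5 lie below all later samples of the tissue, while Arntl overlaps between ages.

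At P5 the clock genes were already expressed in both tissues. In hippocampus at P5, Tef (5.84 ± 0.650 RPKM) and Nr1d1 (5.70 ± 0.624 RPKM) were highest, and Ciart (0.901 ± 0.184 RPKM) and Per3 (0.706 ± 0.164 RPKM) lowest (SD, n = 8). Clock (3.49 ± 0.407 RPKM), Per1 (3.43 ± 0.459 RPKM) and Arntl (3.06 ± 0.301 RPKM) lay between them and overlapped, and below these came Nr1d2 (2.46 ± 0.418 RPKM), Dbp (2.35 ± 0.448 RPKM) and Per2 (2.03 ± 0.216 RPKM), each within the spread of the next. In prefrontal cortex at P5 Nr1d1 (8.82 ± 1.29 RPKM) was highest, and Per1 (4.77 ± 1.26 RPKM) and Tef (4.73 ± 0.464 RPKM) overlapped behind it (SD, n = 8). At 6W and 6M together Nr1d1 led in hippocampus with 36.9 ± 5.85 RPKM, followed by Tef (21.3 ± 1.38 RPKM), Dbp (15.5 ± 3.66 RPKM), Nr1d2 (9.69 ± 1.05 RPKM), Clock (7.72 ± 0.566 RPKM) and Per1 (5.70 ± 0.937 RPKM) (SD, n = 16). Arntl (3.83 ± 0.498 RPKM), Per2 (3.48 ± 0.449 RPKM), Ciart (2.55 ± 0.833 RPKM) and Per3 (2.42 ± 0.298 RPKM) formed the lower end, with neighbours within their spread. In prefrontal cortex at these ages Nr1d1 again led, with 52.1 ± 10.5 RPKM, ahead of Tef (20.8 ± 2.44 RPKM) and Dbp (18.6 ± 5.44 RPKM) (SD, n = 16), and the last 2 overlapped.

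Between P5 and 6W all 10 clock genes rose in hippocampus of both genotypes, and all but Arntl and, in WT, Per1 rose in prefrontal cortex. The largest changes were those of Dbp and Nr1d1 and the smallest those of Arntl. Dbp stood at 9.67, 5.85, 7.39 and 7.24 CPM in the 4 WT hippocampus samples at P5 and at 44.8, 36.1, 35.6 and 47.2 CPM at 6W. Every 6W sample was above every P5 sample, and the log2 fold change was 2.44 (SE 0.23, edgeR adjusted p = 5.68e-10). It was 2.85 (SE 0.24) in KO hippocampus, 2.93 (SE 0.30) in WT and 3.12 (SE 0.31) in KO prefrontal cortex. Prefrontal Dbp stood at 10.3, 6.24, 5.60 and 4.79 CPM in WT at P5 and at 39.7, 55.2, 48.2 and 63.4 CPM at 6W, again without overlap. Tef, the related factor, stood at 49.7, 47.1, 53.8 and 46.8 CPM at P5 and at 168, 165, 159 and 166 CPM at 6W in WT hippocampus. Its log2 fold changes were 1.74 to 2.21 over the 4 comparisons of tissue and genotype, with no overlap between the ages.

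Both Rev-erb receptors rose. Nr1d1 stood at 18.9, 15.6, 19.3 and 18.1 CPM at P5 and at 90.0, 88.1, 91.2 and 115 CPM at 6W in WT hippocampus, a log2 fold change of 2.42 (SE 0.13, edgeR adjusted p = 1.02e-14). In KO hippocampus the change was 2.76 (SE 0.14), and in prefrontal cortex it was 2.37 (SE 0.18) in WT and 2.61 (SE 0.18) in KO. Nr1d2 rose by 1.75 (SE 0.10) in WT and 2.09 (SE 0.11) in KO hippocampus on the log2 scale, and by 1.63 (SE 0.14) and 2.04 (SE 0.14) in prefrontal cortex.

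Among the inhibitors Per3 had the largest changes in hippocampus. It ranged from 7.07 to 9.55 CPM in WT hippocampus at P5 and from 23.2 to 29.3 CPM at 6W, with log2 fold changes of 1.68 to 1.97 over the 4 comparisons. Ciart, the gene with 3 E-boxes, ranged from 1.56 to 2.01 CPM in WT hippocampus at P5 and from 3.77 to 4.83 CPM at 6W, with log2 fold changes of 1.16 to 1.88. Per2 rose by 0.70 to 1.01 on the log2 scale. Per1 rose in hippocampus, by 0.59 (SE 0.14) in WT and 0.67 (SE 0.14) in KO. In prefrontal cortex its difference was 0.45 (SE 0.21) in WT, which did not pass the test (edgeR adjusted p = 0.0601), and 0.47 (SE 0.21) in KO, which did (edgeR adjusted p = 0.0494). Per1 in prefrontal KO was at 41.9, 21.4, 19.9 and 31.5 CPM at P5 and at 27.8, 34.9, 43.6 and 53.0 CPM at 6W, and the ages overlapped. The KO call was lost in 5 of 12 alternatives. These were the fits without replicate 2, 3 or 4 (edgeR adjusted p = 0.169, 0.304 and 0.237), that of the 8 samples alone (0.111) and that without KO 6M replicate 3 (0.0541). Without prefrontal KO P5 replicate 1, whose Per1 was the highest of its group at P5, the KO difference was 0.71 (edgeR adjusted p = 0.00280). The WT difference passed in 6 of the 12, without replicate 1 (edgeR adjusted p = 0.00323), without that KO library (0.0315), in the fit of its 8 samples alone (0.0205), without a filter on low counts (0.0386), blocking on the replicate number (0.0458) and with DESeq2 (adjusted p = 0.0451). Whether the genotypes differ in this step is not shown by these calls.

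Of the activators, Clock rose in all 4 comparisons and Arntl in the 2 of hippocampus. Clock stood at 47.3, 58.2, 46.9 and 51.8 CPM at P5 and at 104, 113, 114 and 112 CPM at 6W in WT hippocampus, with log2 fold changes of 1.12 to 1.43 over the 4 comparisons. Arntl stood at 23.2, 19.7, 22.9 and 26.1 CPM and at 32.1, 26.9, 28.7 and 29.0 CPM in the same samples, a change of 0.34 (SE 0.12, edgeR adjusted p = 0.0187). In prefrontal cortex its difference was 0.22 (SE 0.15) in WT and 0.21 (SE 0.15) in KO, with edgeR adjusted p-values of 0.192 and 0.209. The hippocampus calls for Arntl were lost without replicate 1 (edgeR adjusted p = 0.0908 in WT and 0.0812 in KO), and in KO also without replicate 2 (0.184).

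**Figure D2:**
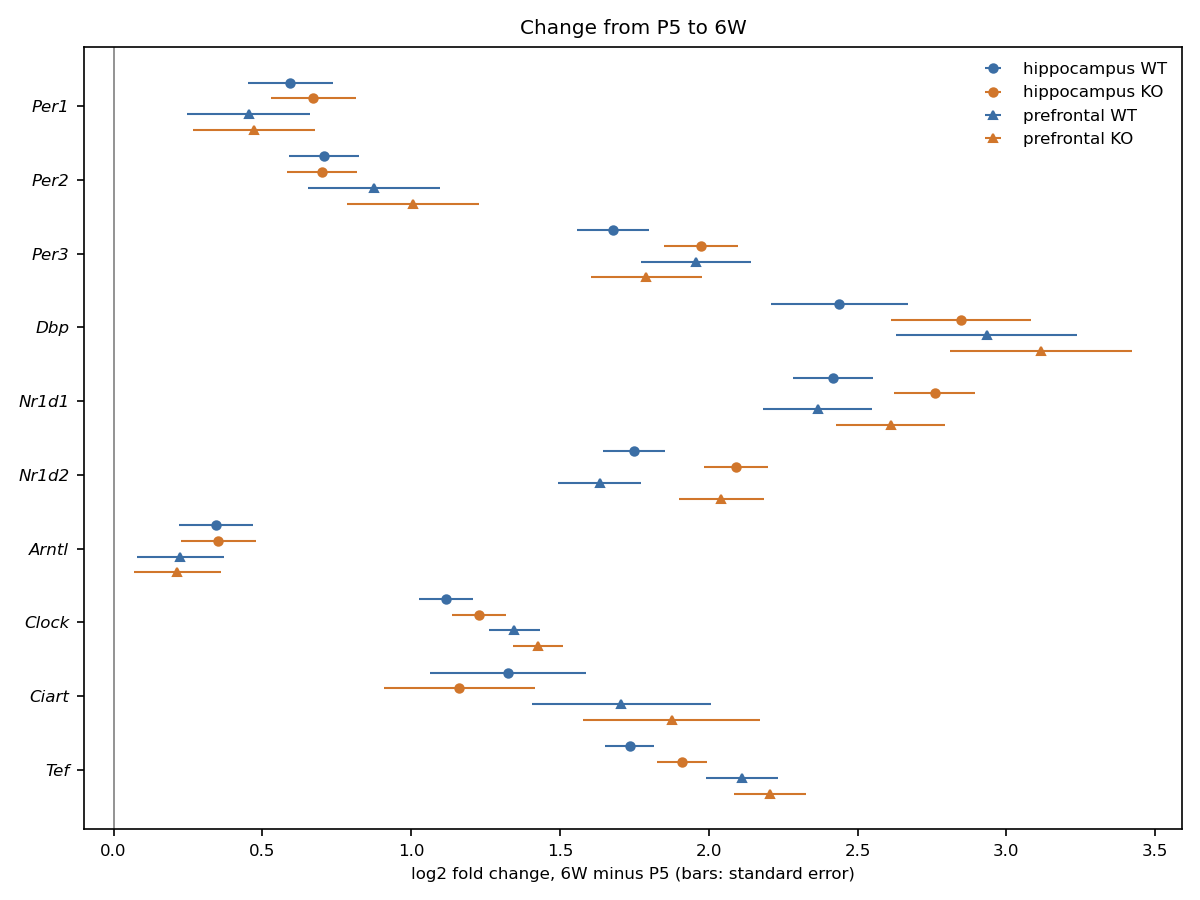
Log2 fold change from P5 to 6W (x axis, positive where 6W is higher) for each gene, with bars of 1 standard error either side; circles are hippocampus, triangles prefrontal cortex, WT blue and KO orange. Dbp and Nr1d1 lie between 2.37 and 3.12 and Arntl between 0.21 and 0.35.

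In counts, 10 of 10 genes were called higher (adjusted p under 0.05) in WT and 10 of 10 in KO hippocampus, 8 of 10 in WT and 9 of 10 in KO prefrontal cortex, and none lower. Of all genes tested, 62% and 62.1% were called in WT and KO hippocampus and 60.8% and 61.4% in WT and KO prefrontal cortex. Called higher were 31.4% (WT) and 31.2% (KO) of all hippocampus genes and 30.6% (WT) and 30.2% (KO) of all prefrontal ones. The members' median log2 fold change was 1.501 in WT and 1.57 in KO hippocampus, 1.67 in WT and 1.83 in KO prefrontal cortex, beside 0.02, 0.01, 0.00 and -0.02 for all genes. Cell type markers moved in the same step. In hippocampus the summed level of 7 oligodendrocyte genes ranged from 80.7 to 99.9 CPM at P5 and from 4382 to 10154 CPM at 6W, that of 6 astrocyte genes from 1405 to 1728 and from 5284 to 8050 CPM, and that of 5 immature neuron genes from 3458 to 4864 and from 414 to 494 CPM. In prefrontal cortex the same sums ranged from 69.2 to 110.2 and from 2008 to 3024 CPM, from 650.5 to 882 and from 4298 to 5985 CPM, and from 4003 to 5572 and from 473 to 605 CPM. Their part in the clock gene changes was not tested, and in bulk tissue more cells of a type and more RNA per cell cannot be told apart.

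A wider list of 20 clock genes was tested in the same fits. In WT, 17 of the 20 were called in hippocampus (13 higher, 4 lower) and 15 in prefrontal cortex (11 higher, 4 lower), with median log2 fold changes of 0.79 and 0.48. In KO the counts were 18 and 16. Over all genes 62% were called in WT and 62.1% in KO hippocampus, and 60.8% in WT and 61.4% in KO prefrontal cortex. In WT, 30.6% of all hippocampus genes and 30.3% of all prefrontal genes were called lower. Hlf, another PAR bZIP factor, rose from a mean of 31.2 to 233 CPM in WT hippocampus (log2 fold change 2.90, SE 0.13) and from 34.8 to 318 CPM in WT prefrontal cortex (3.19, SE 0.12). Bhlhe41 (also called Dec2), a repressor that binds E-boxes, rose by 2.44 (SE 0.12) and 2.42 (SE 0.21) on the log2 scale. Usp2, a deubiquitinase, rose by 1.82 (SE 0.10) in WT hippocampus, and Wee1, a kinase of the cell cycle, by 2.30 (SE 0.13) in WT prefrontal cortex. The 4 that fell in each of the 4 comparisons were Cry1, Nfil3, Csnk1e and Timeless, named after their values were seen. Nfil3, a repressor that binds D-boxes, fell by 0.96 in WT hippocampus and by 1.64 in WT prefrontal cortex on the log2 scale. Cry1, a partner of the Per proteins, fell by 0.53 and by 1.14.

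Between 6W and 6M no member passed the test. The count was 0 of 10 over both genotypes in each tissue, where 1.15% of all genes were called in hippocampus and 0.678% in prefrontal cortex. It was also 0 of 10 in each genotype, beside 0.157% (WT) and 0.45% (KO) of all hippocampus genes and 0.0386% (WT) and 0.0937% (KO) of all prefrontal ones. At an unadjusted p under 0.05 there were 2 members in hippocampus over both genotypes (Nr1d1 and Ciart) and 1 in prefrontal cortex (Nr1d2), beside 11.3% and 12.5% of all genes. Within a genotype there were 3 in WT hippocampus (Per1, Nr1d1 and Ciart), 1 in KO hippocampus and 1 in KO prefrontal cortex (Nr1d2 in both) and 0 in WT prefrontal cortex. The shares of all genes were 10.5% and 6.76% in WT and KO hippocampus, and 11.1% and 4.74% in KO and WT prefrontal cortex. In WT hippocampus Ciart was at 3.77, 4.83, 4.78 and 4.13 CPM at 6W and at 7.62, 6.71, 6.02 and 6.12 CPM at 6M, so every 6M sample was above every 6W sample, with a log2 difference of 0.59 (SE 0.24, edgeR adjusted p = 0.380). It was the one member without overlap there, beside 5.45% of all genes. Nr1d1 in WT hippocampus ranged from 88.1 to 115 CPM at 6W and from 114 to 135 CPM at 6M, with overlap and a difference of 0.39 (SE 0.13, edgeR adjusted p = 0.282), and was called in 1 of 11 alternatives, without a filter on low counts (edgeR adjusted p = 0.0194). Per1 had a difference of 0.29 (SE 0.14, edgeR adjusted p = 0.466). Over both genotypes Ciart ranged from 3.77 to 6.10 CPM in the 8 hippocampus samples at 6W and from 2.36 to 9.56 CPM at 6M, and the ages overlapped. Its log2 difference, 6M minus 6W, was 0.48 (SE 0.17, edgeR adjusted p = 0.233). It was called in 3 of 10 alternatives. Without a filter on low counts, with all samples, the difference was 0.48 (edgeR adjusted p = 0.0175), and without replicate 3 of every group it was 0.71 (edgeR adjusted p = 0.00645). With only KO 6M replicate 3 left out, the lowest of the 6M values, it was 0.62 (edgeR adjusted p = 0.00276), but that library had been picked for low values that include this one. In the other 7 alternatives Ciart was not called, with an edgeR adjusted p of up to 0.714 without replicate 2. None of the 20 wider clock genes was called over both genotypes, with 7 in hippocampus and 5 in prefrontal cortex at an unadjusted p under 0.05.

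The comparison of KO with WT asks how the clock genes stood in the knockout. In none of the 6 combinations of tissue and age was a member called. Of all genes tested, 0.118%, 0.0394% and 0.045% were called in hippocampus at P5, 6W and 6M, and 0.0496%, 0.0331% and 0.0331% in prefrontal cortex. At 6M no member was called in any of 11 alternatives in hippocampus or 12 in prefrontal cortex, the fit without KO 6M replicate 3 among them. Over these the log2 difference, KO minus WT, ran from -0.13 to 0.33 for Ciart and from -0.18 to 0.25 for Dbp in hippocampus, beside 0.04 and -0.01 as fitted on all samples, and from -0.33 to 0.29 and -0.18 to 0.17 in prefrontal cortex, beside 0.03 and -0.01. Over all ages 0 of 10 were called in each tissue (0.0675% and 0.0661% of all genes). Members at an unadjusted p under 0.05 numbered 4, 1 and 0 in hippocampus at the 3 ages and 2, 0 and 0 in prefrontal cortex. Of all genes, 7.83%, 4.32% and 3.24% had such a p in hippocampus, and in prefrontal cortex 8.28%, 3.38% and 1.73% did.

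The smallest p-values of members at P5, none of which passed after adjustment in the edgeR fit, were those of Per3, with lower values in KO hippocampus, and of Nr1d2, with lower values in KO in both tissues. Per3 was at 7.66, 9.55, 7.07 and 7.84 CPM in WT hippocampus at P5 and at 5.37, 5.36, 6.55 and 4.86 CPM in KO, so the groups did not overlap. The log2 difference, KO minus WT, was -0.53 (SE 0.13), with an edgeR adjusted p of 0.1005. It was called in 2 of 11 alternatives, with DESeq2 (adjusted p = 0.0272) and by edgeR without a filter on low counts (adjusted p = 0.0113), and not in the other 9, where the edgeR adjusted p reached 0.700 without replicate 2. In prefrontal cortex at P5 Per3 ranged from 5.53 to 7.63 CPM in WT and from 4.30 to 7.89 CPM in KO, with overlap and a difference of -0.11 (SE 0.19, edgeR adjusted p = 0.867). Nr1d2 was at 15.4, 15.9, 13.3 and 16.1 CPM in WT hippocampus at P5 and at 12.7, 12.2, 10.6 and 10.4 CPM in KO, a difference of -0.40 (SE 0.11, edgeR adjusted p = 0.194). In prefrontal cortex at P5 it was at 20.7, 18.2, 17.8 and 18.0 CPM in WT and at 11.1, 14.4, 15.6 and 13.1 CPM in KO, a difference of -0.47 (SE 0.14, edgeR adjusted p = 0.485). The Nr1d2 values of the genotypes did not overlap in either tissue. The lowest prefrontal value was that of KO replicate 1, a library that stood apart in how its deviations followed GC content. They rose by 0.44 on the log2 scale for each 10 points of GC, against -0.26, -0.26 and 0.08 in replicates 2 to 4. Without that library, a choice made after seeing the data, the prefrontal Nr1d2 difference was -0.38 (edgeR adjusted p = 1). Ciart had higher values in KO hippocampus at P5, 2.04 to 2.84 against 1.56 to 2.01 CPM, also without overlap, and did not pass the test (0.43, SE 0.27, edgeR adjusted p = 0.732). Groups did not overlap for 3 of 10 members in hippocampus at P5, beside 4.54% of all genes, and for 1 of 10 in prefrontal cortex, beside 3.33%. The summed level of 10 choroid plexus genes ranged from 2102 to 7876 CPM in WT and from 57.3 to 2049 CPM in KO hippocampus at P5. That of 5 immature neuron genes ranged from 3458 to 3928 CPM in WT and from 3972 to 4864 CPM in KO, and that of 7 oligodendrocyte genes from 85.9 to 99.9 and from 80.7 to 84.5 CPM. These 3 marker sums thus did not overlap between the genotypes in hippocampus at P5 either, and their part in the differences of Per3, Nr1d2 and Ciart was not tested. In prefrontal cortex at P5 all 3 overlapped. The choroid plexus sum ranged there from 62.4 to 88.5 CPM over both genotypes, and the immature neuron sum from 4016 to 5572 CPM in WT and from 4003 to 5440 CPM in KO.

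**Figure D3:**
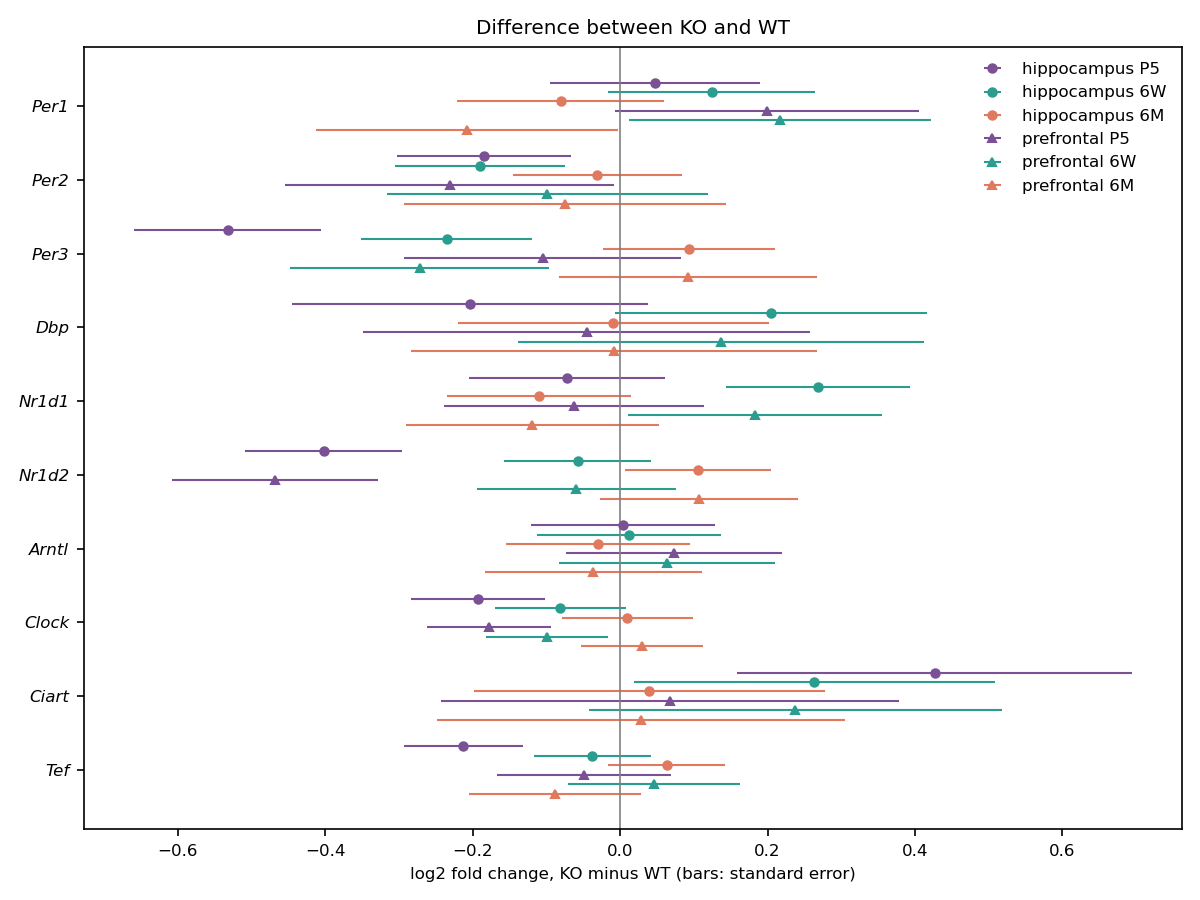
Log2 fold change of KO over WT (x axis, positive where KO is higher) for each gene at 3 ages (colours) in hippocampus (circles) and prefrontal cortex (triangles), with bars of 1 standard error either side. The values farthest below 0 are those of Per3 in hippocampus (-0.53) and Nr1d2 in prefrontal cortex (-0.47), both at P5.

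A genotype effect that depends on age was tested as an interaction. No member was called in either tissue, beside 0.00562% and 0.00551% of all genes. At an unadjusted p under 0.05 were Per3 and Nr1d2 in hippocampus (edgeR adjusted p = 0.833 and 0.908) and Nr1d2 in prefrontal cortex (edgeR adjusted p = 0.986), beside 4.83% and 3.06% of all genes in the 2 tissues. Of the wider list 0 of 20 were called in each genotype comparison.

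Between the tissues a few clock genes differed. Of the 10, 6 were called at P5 (2 higher in hippocampus, 4 lower), 2 at 6W and 3 at 6M (all lower in hippocampus), beside 38.5%, 41.1% and 33.5% of all genes. At P5 18.3% of all genes were called higher and 20.2% lower in hippocampus, and 20.4% and 16.2% lower at the later ages. Nr1d1 was called at each age, with a log2 difference, hippocampus minus prefrontal, that was -0.61 in the P5 mice (SE 0.12), then -0.53 (SE 0.11) and, in adults, -0.46 (SE 0.11). At P5 it ranged from 22.6 to 33.2 CPM in prefrontal samples and from 14.5 to 19.7 CPM in hippocampal ones, with no overlap. Ciart was lower in hippocampus at 6W (-0.72, SE 0.20) and 6M (-0.56, SE 0.19), and both calls were lost without replicate 4 (edgeR adjusted p = 0.0990 and 0.106). At P5 Per1 (-0.45, SE 0.13) and Arntl (-0.35, SE 0.10) were lower in hippocampus and Tef (0.32, SE 0.07) and Clock (0.20, SE 0.06) higher. The P5 calls for Per1 and Clock were lost without replicate 4 (edgeR adjusted p = 0.0978 and 0.138), and that for Arntl without replicate 2 (0.0585). Nr1d2 was lower at P5 (-0.25, SE 0.09) and 6M (-0.27, SE 0.09), calls that were lost without replicate 2 (edgeR adjusted p = 0.0596 and 0.0760) or replicate 4 (0.0807 and 0.0963), and at P5 without replicate 3 (0.125). Cell type markers differed between the tissues at the same ages. The astrocyte sum at P5 ranged from 1405 to 1728 CPM in hippocampal samples and from 650.5 to 882 CPM in prefrontal ones. The oligodendrocyte sum ranged from 4382 to 10154 CPM in hippocampal samples and from 2008 to 3024 CPM in prefrontal ones at 6W, and from 2880 to 4980 and from 951 to 2239 CPM at 6M. The sum of 7 striatal genes ranged over all ages from 89.4 to 133.7 CPM in hippocampal samples and from 134.4 to 701 CPM in prefrontal ones. None of these sums overlapped between the tissues at these ages, and their part in the differences of the clock genes was not tested. The CPM of each tissue was scaled with its own TMM factors, and the striatal ranges nearly met.

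Of the wider list 14, 10 and 11 of 20 were called between the tissues at P5, 6W and 6M, with 11, 8 and 10 of them lower in hippocampus. Among the 3 largest differences at each age were those of Rorb, a receptor that binds the same element as the Rev-erb proteins, and Npas2, a paralogue of Clock. Rorb was lower in hippocampus, with log2 differences at P5, 6W and 6M of -2.15, -1.13 and -1.04, and Npas2 likewise with -1.58, -1.23 and -0.85.

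Within groups the genes varied to very different degrees, and part of the spread came from KO 6M replicate 3. The standard deviation of log2 CPM within groups was 0.38 for Dbp and 0.41 for Ciart in hippocampus (24 samples, 18 degrees of freedom), and 0.24 and 0.21 without that number, an alternative chosen after seeing the data. In prefrontal cortex it was 0.46 and 0.46, and 0.43 and 0.39 without it. The median gene with a mean log2 CPM over 3 had 0.15 in hippocampus and 0.17 in prefrontal cortex. Of these genes, 98.7% varied less than Dbp in hippocampus, and 91.6% without that number. Ciart lies below this level in both tissues, where counting error is larger, and was not ranked. At P5 its standard deviation was 0.18 in hippocampus and 0.20 in prefrontal cortex (8 samples each), beside 0.14 and 0.19 for the median gene, and at 6W and 6M it was 0.49 and 0.54, or 0.22 and 0.46 without KO 6M replicate 3. Clock was at 0.12 and 0.10 over all ages, and at 0.12 and 0.10 without that number.

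Single sample numbers lay at the ends of this spread. In KO at 6M, replicate 3 had Dbp at 20.6 CPM in hippocampus against 50.7 to 62.4 CPM in the other 3, and at 33.8 CPM in prefrontal cortex against 51.5 to 71.9 CPM. Its Ciart was 2.36 CPM against 6.11 to 9.56 CPM in hippocampus, while its Arntl was 36.5 CPM against 22.1 to 28.7 CPM. In hippocampus this number was thus low in Dbp and Ciart and high in Arntl. In prefrontal KO at 6W Dbp was at 34.7, 29.2, 76.5 and 86.8 CPM and Per2 at 11.1, 10.6, 25.0 and 28.6 CPM in replicates 1 to 4. Arntl in the same samples was at 40.1, 41.9, 28.0 and 31.4 CPM, so it was higher in the 2 samples with low Dbp.

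The log2 CPM of Arntl was also subtracted from that of Dbp in each sample. CPM is not divided by gene length, so the zero of this difference has no meaning, and only differences between samples are read. It ran from -2.59 to -1.26 in the 16 samples at P5 and from -0.82 to 1.51 in the 32 samples at 6W and 6M, a step that restates the rise of Dbp. At 6W it was lower in prefrontal KO replicates 1 (-0.21) and 2 (-0.52) than in replicates 3 (1.45) and 4 (1.47). KO 6M replicate 3 was the lowest of its group in hippocampus (-0.82, the other 3 at 0.82 to 1.47) and in prefrontal cortex (-0.27, the other 3 at 0.64 to 1.51).

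**Figure D4:**
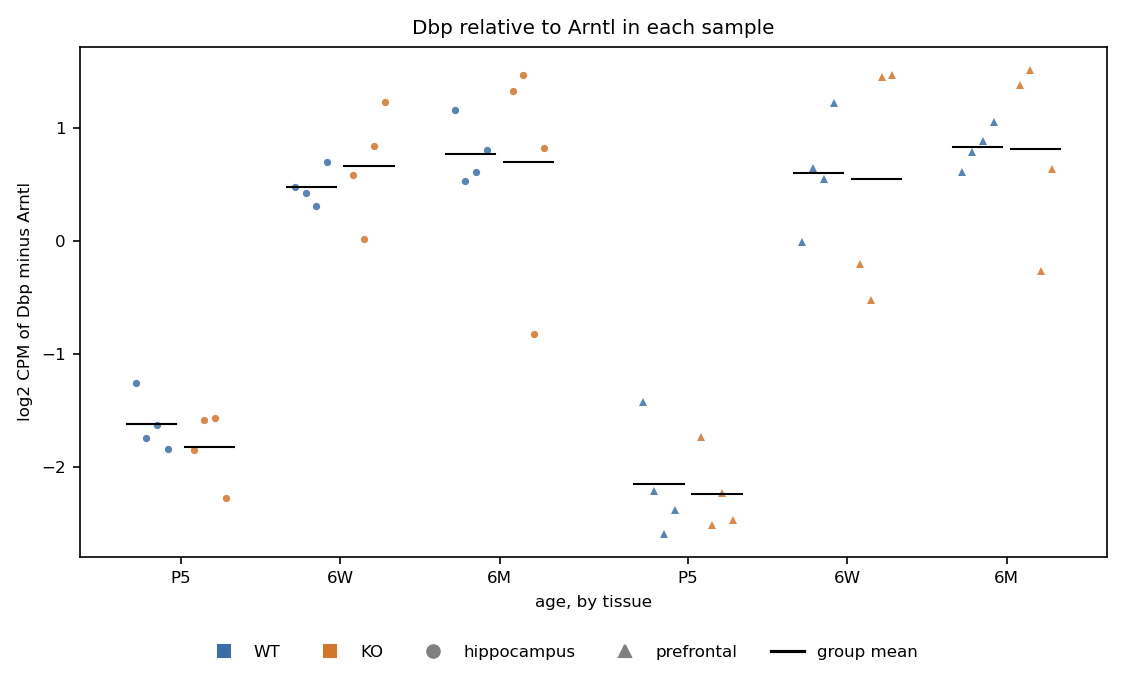
Log2 CPM of Dbp minus log2 CPM of Arntl in each sample (y axis) by age, with hippocampus on the left and prefrontal cortex on the right, WT blue and KO orange, bars at group means. All 16 P5 samples lie at -1.26 or below; among later samples the lowest are KO 6M replicate 3 in hippocampus (-0.82) and KO 6W replicate 2 in prefrontal cortex (-0.52).

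To describe how the genes moved together, each sample's deviation from its group mean (log2 CPM) was related to that of Arntl. Of 18 relations, 9 genes in each tissue over 24 samples, 16 were negative and 7 passed an adjusted p under 0.05 in a permutation test within groups, all of them negative. Over 9461 genes with a mean log2 CPM of 3 or more in both tissues the median r with Arntl was 0.00 in hippocampus and 0.05 in prefrontal cortex. The share of those genes with an r at least as negative was 0.0528% for Dbp and 0.296% for Per2 in prefrontal cortex, and 0.0528% for Nr1d2, 19.2% for Per1 and 19.3% for Per3 in hippocampus. Those that passed in prefrontal cortex were Ciart (Pearson r = -0.77, Spearman rho = -0.70, permutation p = 0.00265, adjusted 0.0184) and Dbp (r = -0.72, rho = -0.69, permutation p = 0.00409, adjusted 0.0184). Per3 (r = -0.67, rho = -0.71), Tef (r = -0.66, rho = -0.66), Nr1d2 (r = -0.63, rho = -0.60) and Per2 (r = -0.61, rho = -0.59) passed there too. In hippocampus Nr1d2 passed (r = -0.70, rho = -0.71, permutation p = 0.00344, adjusted 0.0184), while Dbp (r = -0.63) and Ciart (r = -0.65) had permutation adjusted p-values of 0.0604 and 0.0560. Clock was the one gene with a positive r, 0.20 and 0.15. Leaving out the 2 samples farthest from the median in Arntl gave r of -0.67 for Ciart and -0.61 for Dbp in prefrontal cortex and -0.63 for Nr1d2 in hippocampus. Without KO 6M replicate 3, 0 of 18 passed, with 17 negative and 7 at an unadjusted permutation p under 0.05. Without prefrontal KO P5 replicate 1, 6 passed, Per2 being lost (permutation adjusted p = 0.0551). At 6W and 6M alone 10 of 18 passed, and without KO 6M replicate 3 0 did, with 17 negative, a median r of -0.55 against -0.70 with it, and 8 at an unadjusted permutation p under 0.05 over 15 samples. At P5 alone 0 did in an exact permutation test over 8 samples. The relations share each tissue's libraries.

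Library composition moved with some of these deviations. For each library the slope of its deviations on GC content and on transcript length was computed over expressed genes. Of 40 relations 10 passed a permutation adjusted p under 0.05. Clock followed the length slope in hippocampus (r = 0.87) and the GC slope in both tissues (r = -0.70 and -0.72). The GC slope also went with Per1 (r = 0.79), Tef (r = 0.68), Nr1d1 (r = 0.57) and Dbp (r = 0.44) in prefrontal cortex and with Dbp (r = 0.43) in hippocampus. Per2 (r = 0.66) and Per3 (r = 0.58) went with the length slope in hippocampus. The slopes were computed from the expressed genes with the members left out. Over 9462 genes the median size of r was 0.38 for the GC slope and 0.39 for the length slope in hippocampus and 0.59 for the GC slope in prefrontal cortex. The share of all genes with an r at least as far from 0 was 1.82% for Clock with the length slope in hippocampus. It was 10.9% in hippocampus and 32.9% in prefrontal cortex for Clock with the GC slope. It was 18.2% for Per2 and 27.4% for Per3 with the length slope, and 22.7% for Per1, 39.3% for Tef, 53.0% for Nr1d1 and 65.3% for Dbp with the prefrontal GC slope, and 43.3% for Dbp with the hippocampal one. That of Dbp with the GC slope was thus closer to 0 than the median gene's in prefrontal cortex, as was that of Nr1d1. Without KO 6M replicate 3, 10 of 40 passed, with Dbp and Per3 in hippocampus lost (permutation adjusted p = 0.123 and 0.0943) and Per2 and Ciart added for the prefrontal GC slope (permutation adjusted p = 0.0442 and 0.0176). Without prefrontal KO P5 replicate 1, 8 passed, with prefrontal Dbp and hippocampal Per3 lost (permutation adjusted p = 0.122 and 0.0528). With both slopes removed, 11 of the 18 relations to Arntl passed, 10 of them negative and that of Clock in hippocampus positive.

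Samples of the same genotype, age and number in the 2 tissues deviated together in several of the genes. All 10 had a positive r between tissues over 24 pairs, with a median of 0.48, beside -0.03 over 9462 genes. That of Clock was 0.01 and turned negative with median-of-ratios size factors and without prefrontal KO P5 replicate 1 (1 of 10 negative in each), and 2 of 10 were negative without replicate 1 and 1 of 10 without replicate 2. Ciart (r = 0.67, rho = 0.50), Dbp (r = 0.64, rho = 0.56) and Nr1d1 (r = 0.58, rho = 0.60) passed, each with a permutation adjusted p of 0.0324 over the 10. Leaving out the 2 farthest samples gave 0.49, 0.55 and 0.56. With the GC and length slopes removed 3 of 10 passed, and Nr1d1 was not among them (r = 0.56, permutation adjusted p = 0.0601). Without KO 6M replicate 3, 0 of 10 passed, with r of 0.46, 0.57 and 0.53, and the count was also 0 without any one of the 4 numbers. At 6W and 6M alone 6 of 10 passed, all 10 with a positive r (median 0.59, beside -0.03 over 9462 genes). Without KO 6M replicate 3, 0 of 10 passed there and 2 had an unadjusted permutation p under 0.05 over 15 pairs, with all 10 still positive (median 0.54). At P5 alone 0 did in an exact permutation test over 8 pairs. There 6 of 10 had a negative r (median -0.06, beside -0.05 over 9462 genes).

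**Figure D5:**
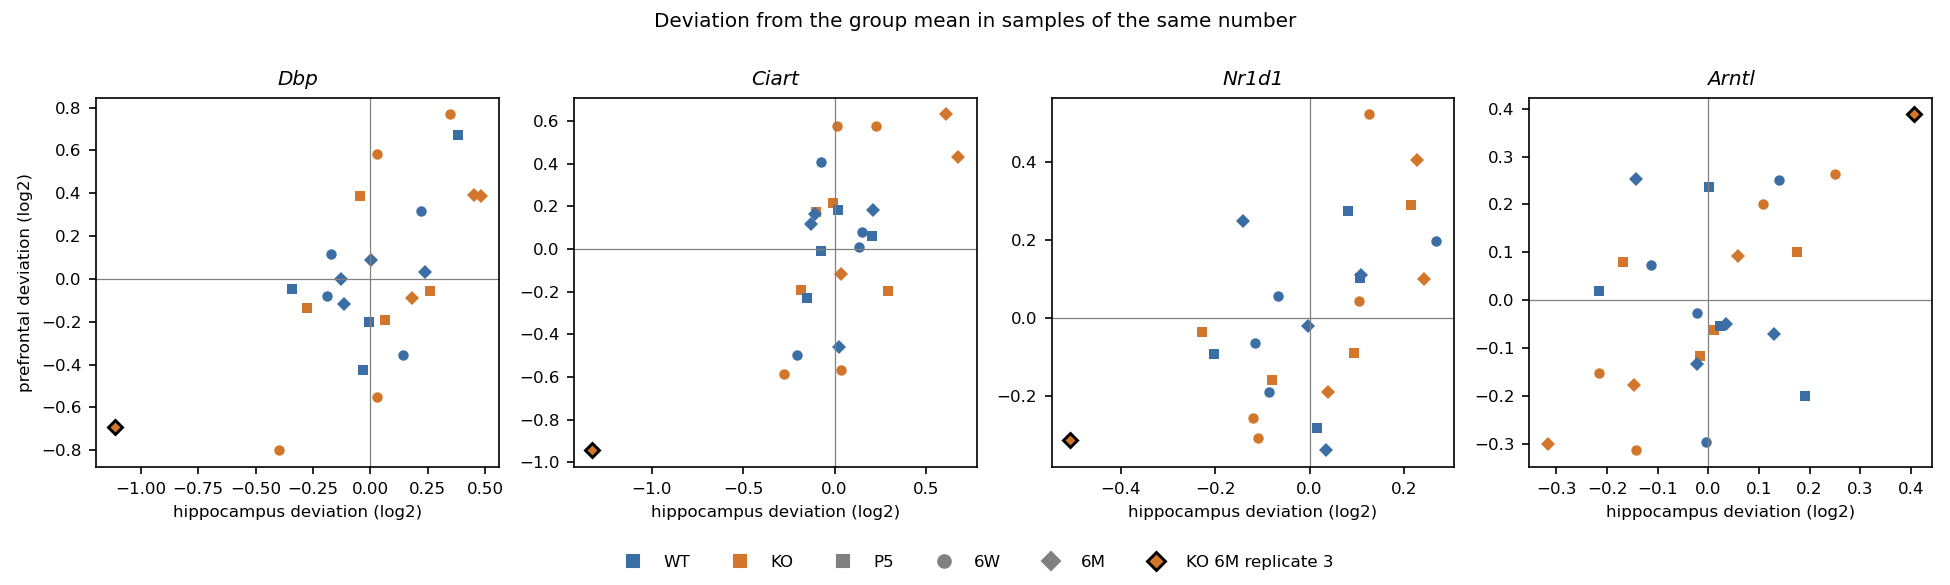
Deviation from the group mean (log2 CPM) in hippocampus (x axis) and in the prefrontal sample of the same genotype, age and number (y axis) for Dbp, Ciart, Nr1d1 and Arntl; each point is 1 pair, WT blue and KO orange, with age by shape. The outlined pair, KO 6M replicate 3, is low in Dbp, Ciart and Nr1d1 and high in Arntl in both tissues.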

How the data were processed

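RNA of 48 samples was sequenced from stranded poly(A) libraries, per the labels' protocols. Raw counts per gene were deposited by the authors; the submitters' processing notes name bcl2fastq 2.20.0.422, STAR 2.4.0, HTSeq and GRCm38, and annotation and strand settings are not given in the sources used here. The deposited counts were tested with edgeR 4.0.16 (quasi-likelihood, TMM, filterByExpr, R 4.3.3) in 1 fit per tissue of 24 samples and 6 groups, and tissues in a fit of all 48, testing 17786, 18144 and 18849 genes. A gene was called at a Benjamini-Hochberg adjusted p under 0.05 over all genes tested. Relations used log2 CPM with a prior count of 1 and 100000 permutations within groups. Alternatives were DESeq2 1.42.0, no filter or a mean count of 10, other size factors, a replicate block, smaller fits and leaving out each replicate or, chosen after seeing the data, KO 6M replicate 3 or prefrontal KO P5 replicate 1. Replicate numbers come from the sample labels. Same-numbered samples correlated by over 0.1 in every pair only for KO against WT hippocampus at 6W (mean 0.348) and 6M against 6W in KO hippocampus (mean 0.377), and the block called 0 members in both. All members are named; of the wider clock list the 3 largest called changes per comparison are named, apart from an item not reported here, and of genes like Dbp the first 8 and the first 5 opposite. Members and lists were chosen with earlier results of these data known. The tests were checked on simulated data.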

Additional observations from a re-analysis of the deposited data

Results flagged for a closer look

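In 5 of 120 groups of 4 samples, 1 sample stood so far from the other 3 that its gap to the nearest, divided by the group's range, passed Dixon's critical value for 4 samples, where 5% of groups, or 6, would do so by chance. Per1 in WT hippocampus at 6W was lowest in replicate 1, at 23.1 CPM against 30.3 to 30.9 CPM. Nr1d1 in the same group was highest in replicate 4, at 115 CPM against 88.1 to 91.2 CPM. Nr1d2 in WT prefrontal cortex at P5 was highest in replicate 1, at 20.7 CPM against 17.8 to 18.2 CPM. Ciart in WT prefrontal cortex at 6M was lowest in replicate 2, at 7.04 CPM against 10.5 CPM or more. Tef in KO prefrontal cortex at P5 was highest in replicate 1, at 43.3 CPM against 33.6 to 35.0 CPM.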

How the results depend on the processing

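Of 278 counts recomputed under an alternative, 258 were within 1.5 times the reported count, and of 646 single calls 583 were kept, 63 lost and 0 reversed. Without a filter on low counts 1 clock gene was called between genotypes in hippocampus at P5 (Per3, also 1 with DESeq2), 1 between 6W and 6M in WT hippocampus (Nr1d1) and 1 over both genotypes (Ciart), and Per1 was added between P5 and 6W in WT prefrontal cortex (adjusted p = 0.0386) and between tissues at 6W (0.0287). Between tissues at 6W Per1 was also called without replicate 1 (0.00748) and without prefrontal KO P5 replicate 1 (0.0409), and Arntl without KO 6M replicate 3 (0.0309). The count over both genotypes was also 1 without KO 6M replicate 3, which like the prefrontal library was chosen after seeing the data. Leaving out each replicate in turn gave 0 to 1 for 6M against 6W over both genotypes in hippocampus, 3 to 6, 1 to 3 and 1 to 3 between tissues at P5, 6W and 6M, 0 to 5 relations to Arntl and 0 to 0 between tissues. The relations to Arntl that passed numbered 0 without KO 6M replicate 3 and 11 with the GC and length slopes removed, and those between tissues 0 without that number and 2 without prefrontal KO P5 replicate 1, where Nr1d1 was lost (0.0527). At 6W and 6M alone both counts fell to 0 without KO 6M replicate 3, from 10 and 6. The causes of these shifts were not tested.

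With the replicate number as a block, no member was called between genotypes (0 in each combination of tissue and age) and 9 were called between P5 and 6W in WT prefrontal cortex, where Per1 was added (adjusted p = 0.0458). With the number that samples of both tissues share within a genotype and age as a block between tissues, 4 genes were called at 6W, Nr1d2 (adjusted p = 0.0378) and Arntl (adjusted p = 0.0190) in addition. Samples with the same number did not deviate together in every pair of the other comparisons. The block changed no other member's call. Ciart, with as few as 45 reads in a sample, has the largest counting error of the 10.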

Other observations

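Genes other than the members were ranked by how like those of Dbp their deviations from the group mean were in both tissues. The ranking covered 9453 genes with a mean log2 CPM of 3 or more in both tissues. By the smaller of the 2 Pearson correlations (24 samples each), the most like were Haghl (r = 0.72 and 0.72 in hippocampus and prefrontal cortex), Cirbp (0.85 and 0.71), Hdac3 (0.70 and 0.71), Fam50a (0.71 and 0.67), Eml2 (0.66 and 0.66), Fibp (0.65 and 0.68), Dcaf15 (0.64 and 0.70) and Slc7a5 (0.64 and 0.65). On the opposite side were Hsd17b7 (-0.79 and -0.72), Cyyr1 (-0.72 and -0.70), Zfp846 (-0.82 and -0.68), Rbm45 (-0.67 and -0.66) and Igfbp7 (-0.64 and -0.70). These are descriptions over shared libraries, and each was closer to 0 in hippocampus without KO 6M replicate 3, with r of 0.62 and 0.72 for Haghl, 0.54 and 0.65 for Cirbp, 0.39 and 0.64 for Hdac3, 0.58 and 0.58 for Fam50a, 0.47 and 0.58 for Eml2, 0.52 and 0.68 for Fibp, 0.26 and 0.69 for Dcaf15 and 0.49 and 0.66 for Slc7a5 in hippocampus and prefrontal cortex. On the opposite side r was then -0.76 and -0.69 for Hsd17b7, -0.39 and -0.69 for Cyyr1, -0.56 and -0.61 for Zfp846, -0.59 and -0.57 for Rbm45 and 0.03 and -0.62 for Igfbp7. Cirbp encodes an RNA-binding protein that is induced by cold. KO 6M replicate 3 had 12.6 CPM of Cirbp in hippocampus against 29.5 to 51.3 CPM in the other 3, and 16.8 CPM in prefrontal cortex against 28.3 to 39.0 CPM.

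Per1 and Per2 also answer to neural activity and to glucocorticoids, and the clock can follow temperature, so 3 further families of relations were computed, chosen after seeing the data. All 48 relations of Per1 and Per2 to 12 immediate early genes were positive, and 4 passed a permutation adjusted p under 0.05. Of 9461 genes, 51.1% to 57.1% had a positive r with Per1 or Per2 in a tissue, with medians of 0.03 to 0.10. With the GC and length slopes removed 47 of 48 were positive and 0 passed, and 0 passed without prefrontal KO P5 replicate 1. Of 48 relations to 12 glucocorticoid-responsive genes 30 were positive and 18 negative (r from -0.65 to 0.69), beside the same 51.1% to 57.1% positive over all genes, and 2 passed. With the slopes removed 22 were positive and 26 negative, and 0 passed. Of 16 relations of Dbp to 8 temperature-responsive genes 5 passed. Cirbp accounts for 2 of them, and its likeness to Dbp in these samples was already known from the ranking above, so they add nothing independent. The other 3 were, with negative r in prefrontal cortex, the chaperone genes Hspa8 (-0.58), Hsp90aa1 (-0.54) and Hsph1 (-0.58). Over 9461 genes, 47.8% had a positive r with Dbp in prefrontal cortex, with a median of -0.03, and 51.6% in hippocampus (0.02). The share of those genes with an r at least as negative in prefrontal cortex was 1.61% for Hspa8, 2.98% for Hsp90aa1 and 1.51% for Hsph1. Of the 11 relations that did not pass, such shares on the same side ran from 0.296% (Rbm3 in hippocampus) to 38.4% (Hspa8 in hippocampus), and nothing particular to temperature-responsive genes is read from the count. With the slopes removed 4 passed, of which Hspa8 was the one negative relation (r = -0.71), beside Cirbp in both tissues and Rbm3 in hippocampus (r = 0.78), and Hsp90aa1 and Hsph1 did not pass. Without KO 6M replicate 3, 1 of the 16 passed, Dnajb1 in prefrontal cortex (r = 0.64, permutation adjusted p = 0.0451), and the adjusted p of Cirbp was 0.0653 in both tissues. Without prefrontal KO P5 replicate 1, 4 passed, Cirbp in both tissues and Hsp90aa1 (r = -0.52, permutation adjusted p = 0.0493) and Hsph1 (r = -0.55, adjusted p just under 0.05) in prefrontal cortex, and Hspa8 did not (permutation adjusted p = 0.0753). Without KO 6M replicate 3, 5 of the 48 relations to immediate early genes and 2 of the 48 to glucocorticoid-responsive genes passed. Between P5 and 6W in WT hippocampus, 9 of 12 immediate early genes were called higher and 0 lower (median log2 fold change 1.71), as were 9 and 2 of 12 glucocorticoid-responsive genes (0.73) and 3 and 3 of 8 temperature-responsive genes (0.10). Of all genes tested there, 31.4% were called higher and 30.6% lower (median 0.02).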
